A study of Arabidopsis thaliana with 2 samples.

Results

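ILR1 (AT3G02875) is an Arabidopsis thaliana gene on the plus strand of chromosome 3, from 631824 to 634074 in TAIR10.1. It encodes an enzyme that frees the plant hormone auxin from storage. The authors deposited 4 tables of splicing events that compare lefko mutant with wild-type embryos, and all their rows with the gene identifier of ILR1 were taken. There was 1 such event among the 270 listed in 227 genes. It is the retention of the last of the 4 introns of ILR1, in a table of 115 intron retention events. In wild-type embryos 35.3% of the reads of this event kept the intron, and in the mutant 8.65% did. The gene was chosen by these retained shares, so they are given as a description without a test.

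Both groups were embryos of the Col-0 ecotype, dissected from siliques between the globular and the heart stage. The wild type and the lefko mutant are 1 sample each. The title of the mutant sample reads lefko1, while its extraction protocol, the tables and the series title write lefko2. Both names were read as the only mutant of the series. No label names the mutated gene or its allele. The labels give seeds as the source and the extraction protocol gives embryos. The tables list splicing events and no expression levels, so the tissue could not be checked against marker genes.

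Auxin (indole-3-acetic acid, IAA) is active as the free acid. Plants also hold it as conjugates with amino acids, which GH3 enzymes make and which enzymes of the ILR1-like amidohydrolase family cleave to release free IAA. ILR1 cleaves the leucine and phenylalanine conjugates best, and its name, IAA-leucine resistant, comes from mutant roots that tolerate IAA-leucine. In the young embryo, auxin made and moved between cells sets the axis from root to shoot and the positions of the cotyledons, over the stages collected here.

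The retained intron separates exon 4 from exon 5, both of which hold coding sequence. It runs from 633357 to 633460 and is 104 bases long. Exon 4 (633228 to 633356) has 129 bases, and exon 5 runs from 633461 to the end of the gene at 634074. The sequences below show what the enzyme's reading frame meets when the intron stays in, and what it meets when the intron is removed. They were read from the RefSeq TAIR10.1 genome on the plus strand. The retained form starts 15 bases before the end of exon 4 and runs to the stop codon that is next in frame (chr3:633342-633428). Its capitals mark the GT at the start of the intron and the TAA stop codon. In the 3′ end of the intron (chr3:633436-633465) the capitals mark the AG at which splicing ends. In the spliced form the capitals are the start of exon 5.
Retained, exon 4 into the intron: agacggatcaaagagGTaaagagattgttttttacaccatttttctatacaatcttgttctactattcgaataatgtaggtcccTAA
3′ end of the intron into exon 5: taaatgtttcttgatgatgatgcAGatttc
Spliced, exon 4 joined to exon 5: agacggatcaaagagATTTCAGAGGCACAA

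The intron starts between codons, after 930 coding bases or 310 residues. A transcript that keeps it reads 23 further codons from the intron and then stops at TAA (633426 to 633428). The predicted product has 333 residues, against 442 when all introns are removed. It lacks the 132 residues of exon 5, which are 29.9% of the full protein, and carries the 23 intron-encoded residues in their place. The stop lies 32 bases before the end of the intron. Since this is the last intron, 0 annotated exon junctions follow the stop.

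RefSeq annotates 3 transcripts of ILR1. One has all introns removed and encodes the 442 residues. The second is the retained form above, with the same stop and 333 residues, so the retained form matches an annotated transcript. The third keeps intron 3, removes intron 4 and encodes 312 residues, because intron 3 shifts the frame into a stop codon in exon 4. The tables hold no ILR1 row for intron 3, and they list only events that passed the authors' threshold. The map of the transcripts shows the place of the event and the 3 stop codons.

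**Figure D1:**
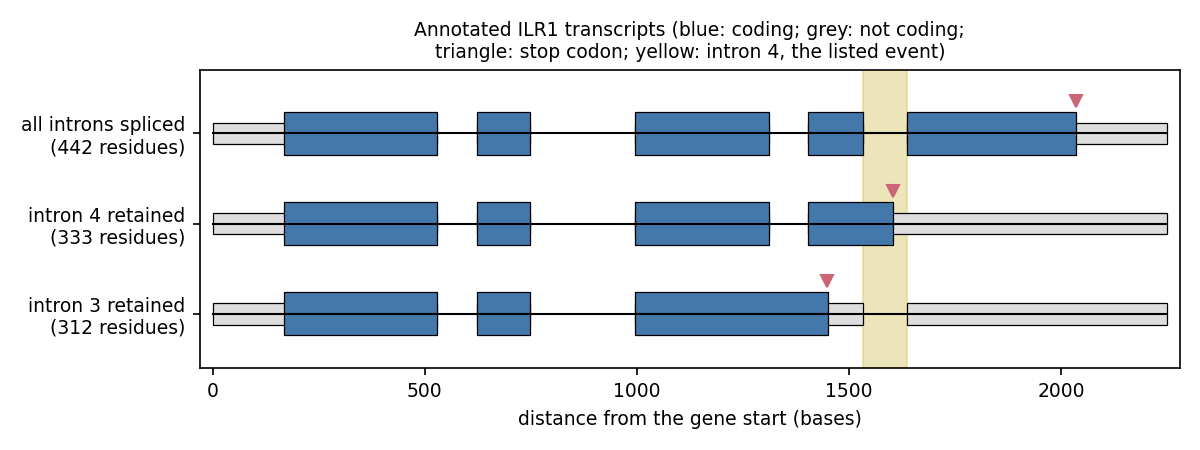
Annotated ILR1 transcripts drawn to scale along the distance from the gene start in bases (x axis), 1 transcript per line, with coding sequence in blue, non-coding exon in grey and the stop codon as a triangle. Intron 4, the listed event (yellow), is followed only by exon 5, and the transcript that keeps it encodes 333 residues against 442.

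Each read count in the tables is 3 whole numbers joined in 1 cell, for reads that include the intron (headed IC) and reads that skip it (headed SC). No label says whether the 3 numbers are plants, libraries or sequencing runs, so they were summed and each genotype counts as 1 sample. In the wild type, 532, 483 and 304 reads kept the intron, beside 933, 911 and 576 spliced reads. In the mutant, 43, 47 and 60 reads kept it, beside 460, 536 and 589 spliced reads. Each wild-type count of retained reads lay above each mutant count, and so did 2 of the 3 wild-type counts of spliced reads. The wild-type count of 576 spliced reads lay between the mutant counts.

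**Figure D2:**
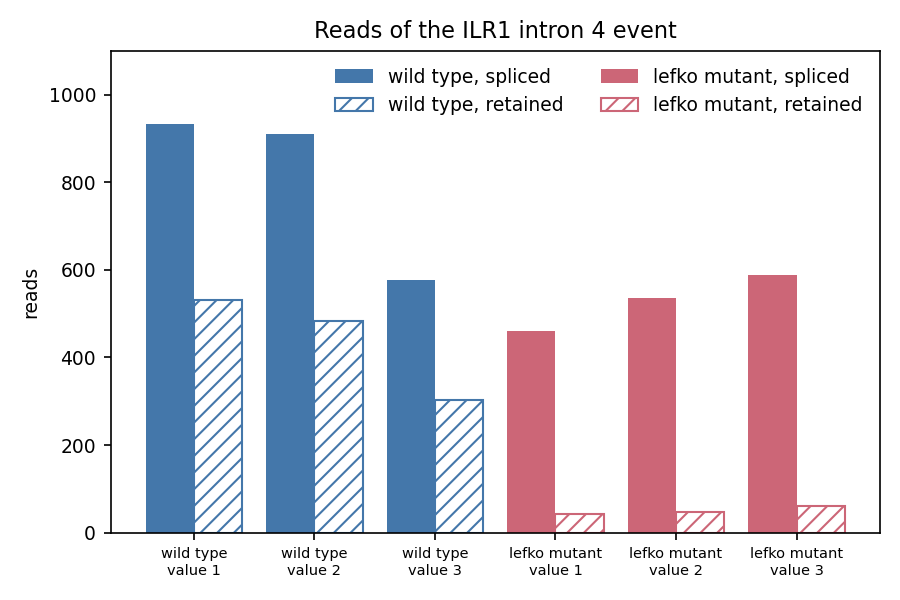
Reads of the ILR1 intron 4 event (y axis, number of reads) for each of the 3 joined values of the wild type and of the lefko mutant, with spliced reads as filled bars and retained reads as hatched bars. Retained reads lie between 304 and 532 in the wild type and between 43 and 60 in the mutant, while spliced reads overlap between the genotypes.

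The retained share is the number of reads with the intron over all reads of the event. In the wild type the 3 values gave 36.3%, 34.6% and 34.5%. In the mutant they gave 8.55%, 8.06% and 9.24%. The wild-type values spanned 1.77 percentage points and the mutant values 1.18 points, and the lowest wild-type value lay 25.3 points above the highest mutant value. The genotypes did not overlap. All 3 wild-type values lay above the mutant values in 31.3% of the 115 listed retention events, which were selected for a difference in either direction. Of the 51 events with a lower share in the mutant it held for 36 (70.6%), and of the 21 of these with at least 50 reads in each genotype it held for all 21 (100%). The separation seen at ILR1 was thus common to well-covered events that fell.

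Over the summed reads the share was 35.3% in the wild type (exact 95% interval 33.7 to 36.8, 1319 of 3739 reads) and 8.65% in the mutant (7.37 to 10.1, 150 of 1735 reads). The intervals cover counting error only, and reads without molecular identifiers are not independent molecules. The share was 4.08-fold higher in the wild type, a difference of -26.6 points for mutant minus wild type (Newcombe 95% interval -28.6 to -24.6). Over the 9 pairs of 1 mutant and 1 wild-type value the difference ran from -28.3 to -25.3 points. The log2 odds ratio of retention, with 0.5 reads added to each count, was -2.52 (-2.78 to -2.26). With 1 sample per genotype there is no replicate check of this difference, and no test of the genotypes was made. The authors' deposited table gives the event a p-value of 0, as it does for 5 of the 115 retention events, and an FDR (false discovery rate) of 0. The listed events were 2.22% of an estimated 5174 retention events tested. This number was worked out from the authors' p-values and FDR and is not stated by them.

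**Figure D3:**
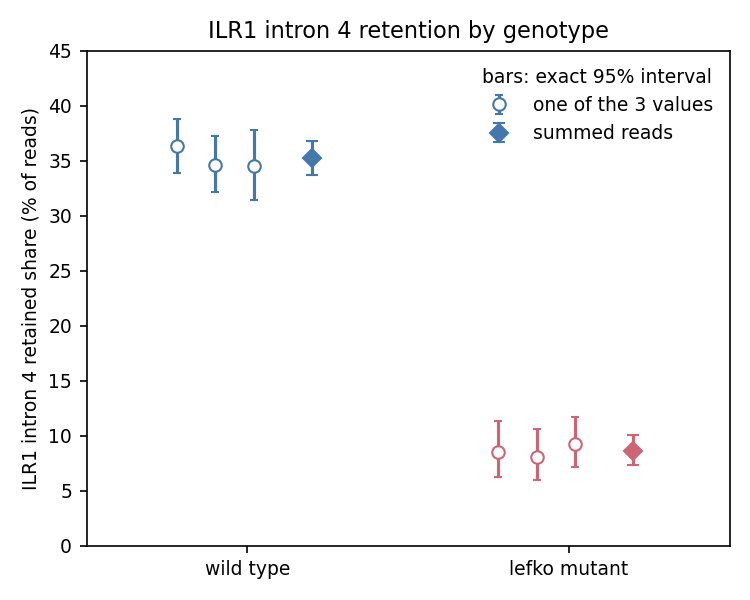
Retained share of ILR1 intron 4 (y axis, % of reads) in wild-type and lefko mutant embryos, with open circles for the 3 joined values, diamonds for the summed reads and bars for exact 95% intervals of counting error. The wild-type circles sit between 34.5% and 36.3% and the mutant circles between 8.06% and 9.24%.

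Reads with intron 4 removed made up 64.7% of the wild-type reads of the event and 91.4% of the mutant reads. They come from the transcript for the complete hydrolase and from any that keeps intron 3, since both splice intron 4. There were 1.83 spliced reads for each retained read in the wild type and 10.6 in the mutant. How the authors counted retained reads, at the ends of the intron or also inside it, is not given in the sources used here. If reads at both ends of the intron were counted against 1 junction of the spliced form, retained reads would have to be divided by 2. The shares were then 21.4% and 4.52%, and the log2 odds ratio stayed at -2.52. The difference in share went from -26.6 to -16.9 points. The size of a share, and of its difference between genotypes, thus depends on how reads were counted. A retained share is not a share of molecules.

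The mutant sample had fewer reads of both forms. Mutant over wild type, the ratio was 0.114 for retained reads (95% counting interval 0.0954 to 0.135) and 0.655 for spliced reads (0.614 to 0.698). All reads of the event had a ratio of 0.464 (0.438 to 0.491), where the median over the 115 retention events was 0.510. Retained reads were thus 88.6% fewer and spliced reads 34.5% fewer. Library totals were not analysed here, so these ratios are not corrected for depth. Fewer cells that express the gene and less RNA per cell cannot be told apart in such samples.

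Both ratios of ILR1 were below the medians of the retention events whose share fell in the mutant. With 0.5 reads added, the median of all 115 events had a mutant to wild-type ratio of 0.495 for retained reads and 0.309 for spliced reads. Among the 51 events with a lower share in the mutant, the medians were 0.243 for retained and 1.86 for spliced reads, above the 0.114 and 0.655 of ILR1. Retained reads had a lower ratio than in ILR1 in 13 of the 51. These are values of events selected for a difference, and the place of ILR1 among them was not tested.

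**Figure D4:**
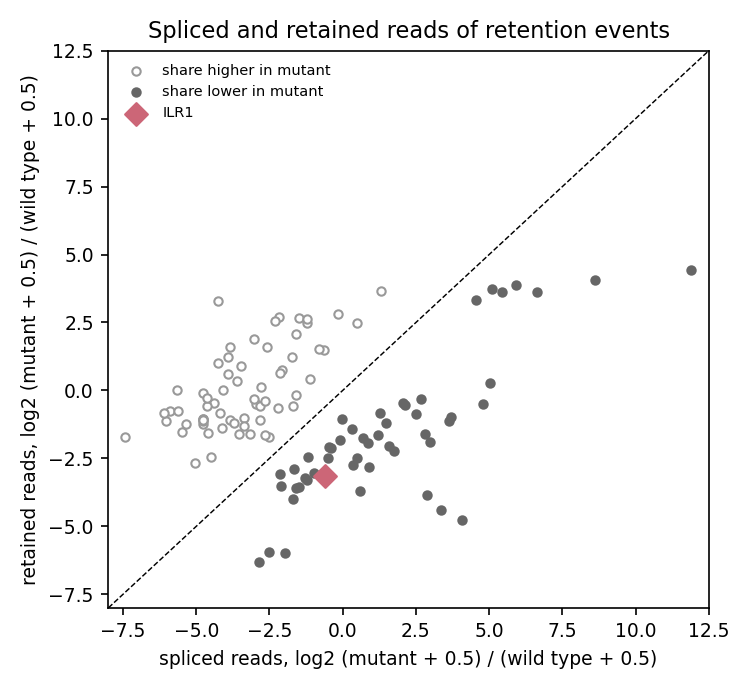
Mutant over wild-type ratio of spliced reads (x axis, log2) and of retained reads (y axis, log2) for the 115 listed retention events, with 0.5 reads added to each count, filled points for a lower share in the mutant and the dashed line for equal ratios. ILR1 (diamond) lies below the line, at 0.655 for spliced and 0.114 for retained reads.

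ILR1 had the most wild-type reads of the 115 retention events, 3739 against a median of 66, and ranked 3 by mutant reads, 1735 against a median of 37. Its shares are therefore among the best covered of the table. Its fall was of middling size. It ranked 31 by the fall in percentage points and 28 by log2 odds among the 115 events, where 51 fell. Among the 44 events with at least 50 reads in each genotype it ranked 10 by points and 8 by log2 odds, where 21 fell. The median fall over the 51 events was -28.7 points and their median log2 odds ratio -2.69. The wild-type share of ILR1 was below the median of those 51 events, 83.3%, and so was its mutant share, whose median was 28.6%.

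The events most like ILR1 were taken as the 5 with the smallest distance in wild-type and mutant share, among the 44 with at least 50 reads in each genotype. The nearest was CHY1, which encodes a hydrolase of beta-hydroxyisobutyryl-CoA, at a distance of 3.21 points. Its intron 13 of 14 was retained in 34.6% of 2267 wild-type reads (95% interval 32.6 to 36.6) and 11.8% of 552 mutant reads (9.21 to 14.8). Its wild-type values lay between 33.3% and 36.8% and its mutant values between 9.27% and 13.4%. The wild-type intervals of CHY1 and ILR1 overlap, and so do their mutant intervals. CHY1 retained reads had a mutant to wild-type ratio of 0.0835 and its spliced reads one of 0.329, where ILR1 had 0.655 for spliced reads.

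MYB60, a transcription factor gene of the R2R3-MYB family, came next at 11.1 points. Its last intron was retained in 24.3% of 1835 wild-type reads, with single values between 21.6% and 26.2%. In the mutant it was retained in 7.70% of 610 reads, with single values between 4.13% and 11.4%. AT3G59660, which encodes a protein with C2 and GRAM domains, had 24.6% of 252 and 5.59% of 322 reads. AT2G21500, a RING/U-box protein gene, had 45.3% of 300 and 19.8% of 257 reads. AT1G69840, for a membrane-associated protein with a Band 7 domain, had 54.4% of 364 and 19.0% of 63 reads. All 5 fell in the mutant, which follows from how they were chosen. The same 5 events were nearest when likeness was measured on the log2 odds scale. Likeness is over 2 samples and says nothing of shared control.

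**Figure D5:**
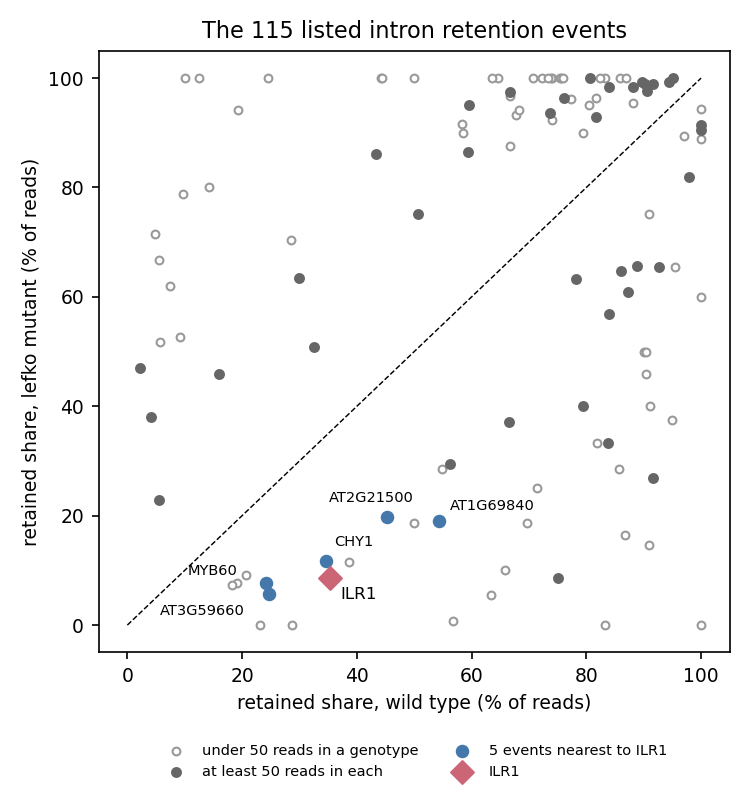
Retained share in the wild type (x axis, % of reads) and in the lefko mutant (y axis, % of reads) for the 115 listed retention events, with filled grey points for at least 50 reads in each genotype, blue points for the 5 events nearest to ILR1 and the dashed line for equal shares. ILR1 (diamond, 35.3% and 8.65%) lies beside CHY1, and the listed events lie on both sides of the line.

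In length, base composition and splice sites the retained intron was close to or above the middle of annotated introns. Its 104 bases compare with a median of 102 over 136048 annotated nuclear introns of at least 30 bases, and its GC content of 31.7% with a median of 32.7%. Splice sites were scored with weight matrices made from all those introns, in bits. The 5′ site, gagGTaaag with the first intron bases in capitals, scored 7.50 bits, above 57.6% of introns. The 3′ site, gtttcttgatgatgatgcAGatt with the last intron bases in capitals, scored 11.2 bits, above 75.0% of introns.

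The splice site scores of the other ILR1 introns ranged more widely. All 4 introns begin with GT, end with AG and start between codons. Intron 1 (94 bases, 26.6% GC) has the 5′ site cagGTttga at 7.72 bits and the 3′ site aaaaatggggacaaaaaaAGgaa at -1.43 bits, which is above 1.14% of introns. Intron 2 (248 bases, 32.7% GC) has the 5′ site aagGTctct at 4.83 bits, above 18.1%. Intron 3 (92 bases, 37.0% GC) has the 5′ site ggtGTaagt at 5.14 bits, above 21.3%, and the 3′ site ggtttttttatgtttctcAGgtg at 14.4 bits, above 95.5%. The 3′ site of intron 2 scored 8.41 bits, above 42.9%. The lowest site score of the gene was at intron 1 and not at the listed intron. How far the other introns were retained is not listed, and site scores were not compared with retention. In-frame stop codons lie inside introns 1, 2 and 4, after 1, 12 and 23 codons of the intron.

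The ILR1-like amidohydrolases are 7 genes in Arabidopsis, and the 6 others, IAR3, ILL1, ILL2, ILL3, ILL5 and ILL6, had 0 listed events. Over all 24197 genes with an annotated intron, 0.93% had a listed event in any of the 4 tables, so 0 of 6 says nothing particular to the family. IAR3 encodes a hydrolase that prefers the alanine conjugate of IAA. All 7 genes have 4 introns within the coding sequence and a second coding exon of 126 bases. In all 7 the last intron starts between codons and holds a stop codon in frame. That intron has 104 bases in ILR1, 80 in IAR3, 77 in ILL5, 84 in ILL1, 90 in ILL2, 315 in ILL3 and 753 in ILL6. Retention would give a product of 312 residues in IAR3 against 440, of 334 in ILL2 against 439, and of 333 in ILR1 against 442. Of these residues, 6 in IAR3, 27 in ILL2 and 23 in ILR1 would be read from the intron. Retention of the last intron would thus shorten the product in all 7 genes. Introns 1 and 2 of ILR1 hold a stop codon in frame as well. How often introns of other genes hold one was not counted, so nothing particular to the family is shown. Whether those introns were retained in these embryos was not analysed here, because a table that holds only events past the threshold says nothing of the others.

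Genes that make, move or sense auxin were looked up in the same way. Of 53 genes on the auxin lists, all 53 were found in the annotation and ILR1 was the 1 with a listed event. The lists held 8 GH3 enzymes that conjugate IAA to amino acids and 4 further genes for the response to conjugates (IAR1, IAR4, ILR2 and ILR3). They also held 14 genes of auxin synthesis (TAA1, its relatives and the YUC monooxygenases) and 2 of auxin oxidation. The last groups were 12 transporters of the PIN and AUX1/LAX families and 6 receptors of the TIR1/AFB family. None of these 46 genes had an event in any of the 4 tables, at the authors' threshold of 0.05. With 0.93% of intron-containing genes listed, a count of 0 among 46 is near the background and is no result about auxin genes.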

How the data were processed

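RNA-seq reads of 1 wild-type and 1 lefko mutant embryo sample were processed by the authors. The submitters' processing notes name HISAT2 2.0.4 and the TAIR10 build. Which program called the events, and with which test, is not given in the sources used here. Deposited tables hold, per the file headers, inclusion (IC) and skipping (SC) read counts, 3 whole numbers joined per cell, and the authors' p-value and false discovery rate (largest 0.0500). Joined counts were summed, and no count model was run. The tables use the chromosome identifiers of RefSeq TAIR10.1, the genome used here. Starts, counted from 0 in the tables, are printed from 1.

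Shares of summed reads, exact Clopper-Pearson intervals, Newcombe intervals and log2 odds ratios (pseudocount 0.5) were computed with Python 3.11.15 and scipy 1.17.1, and tested on simulated data. The number of events tested was estimated from the authors' p-values and false discovery rates (106 of 110 events within 1% of 5174). The estimate assumes that the rates come from a Benjamini-Hochberg correction. By the naming rule, values are given for ILR1, auxin-list genes with events and the 5 nearest events. Auxin-list genes without an event are named for their list or gene structure only. ILR1 and the lists were chosen with earlier results of these data known. The ILR1 event had 3739 wild-type and 1735 mutant reads, which is the depth of that event and not of the libraries.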

Additional observations from a re-analysis of the deposited data

How the results depend on the processing

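The difference in retained share of ILR1 kept its direction under every alternative run. None of these could have reversed it, because the values of the genotypes lie 25.3 points apart and the division by 2 applies to both. Of 30 alternative values, 25 stayed within counting error (or, for ranks and counts, within 1.5 times) and 5 did not. With retained reads divided by 2 the shares were 21.4% and 4.52% and the difference -16.9 points, which follows from the division. The ratio of event reads was 0.909 of the median ratio of retention events and 0.983 of that of all 4 tables. The rank by fall in share was 31 of 115 events and 10 of the 44 with at least 50 reads in each genotype, where fewer events are ranked. Leaving out each of the 3 values in turn gave 34.6% to 35.7% for the wild type, 8.29% to 8.94% for the mutant, -27.0 to -25.96 points for the difference and -2.59 to -2.47 for the log2 odds ratio. No paired analysis was possible because each genotype is 1 sample and no test was made. Each genotype being 1 sample, what other differences between the samples contribute cannot be told apart from the genotype.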

Other observations

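Of the 115 listed retention events, 97 were at annotated introns, and for 93 of these, as for ILR1, another annotated transcript holds the intron within an exon. The program that called the events is not named. If it took retention events from annotated transcripts, such counts would be set in advance. The share over all annotated introns was not counted. Among annotated introns of genes with several introns, the last intron was the listed one in 14 of 44 events with a lower share in the mutant, ILR1, MYB60 and AT2G21500 among them, and in 10 of 50 with a higher share. These counts were noticed after the values were seen and were not tested. The share of last introns among all annotated introns was not counted, and some genes gave several events, so the counts are a description only. Of the 5 events nearest to ILR1, all 5 lie on the minus strand, while ILR1 lies on the plus strand. The share of listed events on the minus strand was not counted, so no meaning is given to this. No other annotated gene overlaps ILR1: AT3G02880 starts 390 bases after its end and AT3G01195 ends 1071 bases before its start.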
